A study of Mus musculus with 12 samples.

Results

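The genes described here encode small nuclear RNAs, measured in CD8+ tumor-infiltrating lymphocytes (TILs) from A2AR eGFP reporter mice. They were chosen by the deposited counts: a gene of type snRNA in mouse GENCODE vM21 entered when it had 10 or more counts in at least 3 libraries. 74 genes passed, of 1385 snRNA-type genes and of 52636 gene identifiers in the whole table. A further 355 snRNA-type genes had counts below that limit, and 956 had 0 counts in every library. The set was proposed with earlier results of these data known, so the values below describe it and are not independent evidence of a direction.

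Small nuclear RNAs are short, structured RNAs that work as ribonucleoproteins in the nucleus. U1 base-pairs with the 5′ splice site and U2 with the branch site, and the U4/U6 and U5 particles join them to form the major spliceosome, in which U6 and U2 form the catalytic core. U11, U12, U4atac and U6atac do the corresponding work for the rare minor introns, together with U5. RNA polymerase II transcribes most of these genes and RNA polymerase III transcribes U6 and U6atac. Mature small nuclear RNAs carry no poly(A) tail. Classes such as U1 and U2 come from several near-identical gene copies, with many further copies scattered through the genome. 7SK, a related nuclear RNA, holds the elongation kinase P-TEFb inactive.

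The reporter mice carried the BAC transgene Tg(Adora2a-EGFP)EP141Gsat on a C57BL/6 background, in which EGFP is expressed under Adora2a regulatory sequences and so marks cells that use this adenosine receptor gene. Female mice of 6 to 16 weeks received 500000 AT3ova cells, a mammary carcinoma line that expresses ovalbumin, under the skin. They were left non-treated or were given anti-PD-L1 on days 14 and 18, and CD8+ cells were sorted as GFP+ or GFP- on day 21. Each of the 4 conditions had 3 libraries, and each library held RNA pooled from 3 mice. All groups carried the transgene and the tumor. P-values therefore measure the spread between pooled libraries. The paper's Adora2a plot and its gene set figure give fewer GFP+ than GFP- samples, and it does not say which library was left out. The libraries were made with a 3′ mRNA kit, which primes on poly(A), and held 11292699 to 19023900 counts.

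The non-treated libraries have the codes KT13 to KT18 and the anti-PD-L1 libraries KT19 to KT24, so treatment and the order of the library codes cannot be told apart. The sort showed in Adora2a, at 60.2 to 67.3 CPM (counts per 1000000 counts of the library, scaled by TMM) in non-treated GFP+ against 19.7 to 24.3 in non-treated GFP- libraries, and at 66.3 to 111 against 26 to 34.6 after anti-PD-L1. KT13 (non-treated, GFP+) and KT21 (anti-PD-L1, GFP+) stood apart: they had the lowest totals and the lowest shares of counts on pseudogenes, 18.1% and 16.4% where the other libraries had 21% to 23.7%. Results are given over all 12 libraries and over 10 without these libraries.

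By class, the members comprised 26 U1, 14 U2, 6 U4, 6 U5, 17 U6, 1 U11, 3 U12 and 1 U6atac gene. The symbol gave the class of 8 members, the closest named sequence that of 59, and general knowledge of the RNA that of 7, namely the 6 U4 genes and the U6atac gene Gm25541. Rn7sk, the 7SK gene, is typed as misc_RNA in this annotation and is given apart. The counts did not fall evenly over the copies. U1 and U2 together gave most small nuclear RNA counts, and 15 of the 17 U6 genes fell below 10 counts in at least 1 library.

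A gene of each of 6 classes is shown, with a diverged U4-like copy, because the classes and copies differ in the stretch that does the work. Capitals mark that stretch: in U1 the bases that pair with the 5′ splice site, in U2 and U12 the branch-site pairing bases, and in U4 the Sm-protein binding site. Sequences without capitals lack the element or were not searched for one. Sequences are GENCODE vM21 transcripts (GRCm38). Rnu1a1 lies at chr11:87422867-87423030 (+ strand), in an intron of Tex14 on the same strand. Rnu2-10 is intergenic at chr11:101658238-101658428 (+), and Gm24265 is intergenic at chr5:115489459-115489599 (+). Gm25135 lies at chr17:43454255-43454397 (+), in an intron of Adgrf5 on the same strand. Rnu11 lies at chr4:132270080-132270213 (-), over an exon of Gm28872 on the other strand. Rnu12 is intergenic at chr15:83149644-83149794 (+), and Gm25541 is intergenic at chr2:27539805-27539930 (-).
Rnu1a1: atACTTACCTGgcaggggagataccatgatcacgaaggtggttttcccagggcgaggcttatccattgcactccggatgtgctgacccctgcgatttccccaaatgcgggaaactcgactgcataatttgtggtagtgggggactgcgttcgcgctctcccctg
Rnu2-10: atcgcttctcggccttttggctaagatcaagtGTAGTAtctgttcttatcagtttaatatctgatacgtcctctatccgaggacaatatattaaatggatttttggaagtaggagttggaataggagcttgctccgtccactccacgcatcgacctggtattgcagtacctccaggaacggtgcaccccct
Gm24265: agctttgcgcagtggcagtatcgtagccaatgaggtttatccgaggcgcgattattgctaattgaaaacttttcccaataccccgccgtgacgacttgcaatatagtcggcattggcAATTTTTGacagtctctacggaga
Gm25135: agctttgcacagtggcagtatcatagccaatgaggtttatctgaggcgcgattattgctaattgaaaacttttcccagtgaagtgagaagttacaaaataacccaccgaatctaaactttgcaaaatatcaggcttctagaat
Rnu11: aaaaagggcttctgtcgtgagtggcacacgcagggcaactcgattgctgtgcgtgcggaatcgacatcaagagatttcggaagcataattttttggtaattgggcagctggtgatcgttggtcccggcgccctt
Rnu12: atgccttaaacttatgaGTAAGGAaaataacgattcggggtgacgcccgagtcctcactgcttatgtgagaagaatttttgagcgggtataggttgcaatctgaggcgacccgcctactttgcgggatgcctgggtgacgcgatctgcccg
Gm25541: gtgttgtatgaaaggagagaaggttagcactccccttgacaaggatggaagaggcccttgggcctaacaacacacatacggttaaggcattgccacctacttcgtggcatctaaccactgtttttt

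The element of the class was found on the transcript strand in 23 of 26 U1, 14 of 14 U2, 3 of 6 U4 and 3 of 3 U12 members. Among all 1383 snRNA-type genes with a sequence, the U1 bases ACTTACCTG were in 3.98%, the U2 bases GTAGTA in 3.69%, the U4 bases AATTTTTG in 1.37% and the U12 bases GTAAGGA in 1.37%. The U1 members without it were Gm22220, Gm24959 and Gm25704, and the U4 members without it were Gm25135, Gm24695 and Gm25179. Their highest mean levels were 15.5 and 4.51 CPM before TMM scaling, against 97.5 and 89.1 CPM for the highest U1 and U4 members that held it. Members with the element could be as low: 7 of the 23 U1 and 1 of the 3 U4 members that held it lay below those levels.

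The rows were not independent measurements. 22 members fell into 7 sets of identical sequence, the largest of which held Rnu1a1 and 6 other U1 genes. Rnu2-10, Gm24950, Gm23971 and Gm23849 are 4 identical U2 genes near each other on chromosome 11, and the counts of the other 3 differed from those of Rnu2-10 by at most 4.29% in any library. Summed over the 12 libraries, the squared difference between Rnu2-10 and Gm24950 divided by their total was 0.658, where separate sampling of equal levels would give a value near 12. Gm23849 and Gm23971 gave 10.2 and 12.1 against Rnu2-10. The identical U1 genes Gm24830 and Gm26232 gave 0.0175, while Rnu1a1 gave 2.78 to 20.3 against its copies Gm22634, Gm25679 and Gm22317, and Rnu1b1 and Rnu1b2 gave 51.2. Some identical copies thus differed by less than sampling noise and others by as much or more. How reads that match several copies were counted is not given in the sources used here. A count of called members may therefore count some RNAs many times, and results with 1 gene per class are given beside it.

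Counts on small nuclear RNA genes were lower after anti-PD-L1 in both GFP+ and GFP- TILs. The kit primes on poly(A), which mature small nuclear RNAs lack. How these counts relate to the amount of small nuclear RNA in the cells was not tested. The 74 members took 0.396% to 0.529% of all counts in the 6 non-treated libraries and 0.193% to 0.298% in the 6 anti-PD-L1 libraries, with no overlap. Their TMM-scaled levels in GFP+ cells summed to 5127 ± 101 CPM without treatment and to 2573 ± 318 CPM with anti-PD-L1 (mean ± SD of 3 libraries), a ratio of 0.502. In GFP- cells the sums were 4510 ± 742 and 2178 ± 191 CPM, a ratio of 0.483. Without KT13 and KT21 the GFP+ ratio was 0.468. No test was made on these sums, since the members were chosen with results known.

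U1 and U2, the abundant classes, set these sums. The U2 sum had ratios of 0.53 in GFP+ and 0.493 in GFP- cells, and the U1 sum 0.473 and 0.46. For U4 the ratios were 0.406 and 0.482, and for U5 they were 0.5 and 0.422. Of the minor spliceosome RNAs, U12 had ratios of 0.314 and 0.388, and U11 had 0.496 and 0.601. U6 and U6atac rested on few counts, with sums of 11 to 27.7 and 1.12 to 3.24 CPM over the 4 conditions. Their ratios were 0.54 and 0.634 for U6, and 0.572 and 0.423 for U6atac. The U6atac ratio in GFP+ cells rested on KT13: it was 0.9 without that library and 0.837 over 10 libraries. Whether the classes differed from each other in size of change was not tested.

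**Figure D1:**
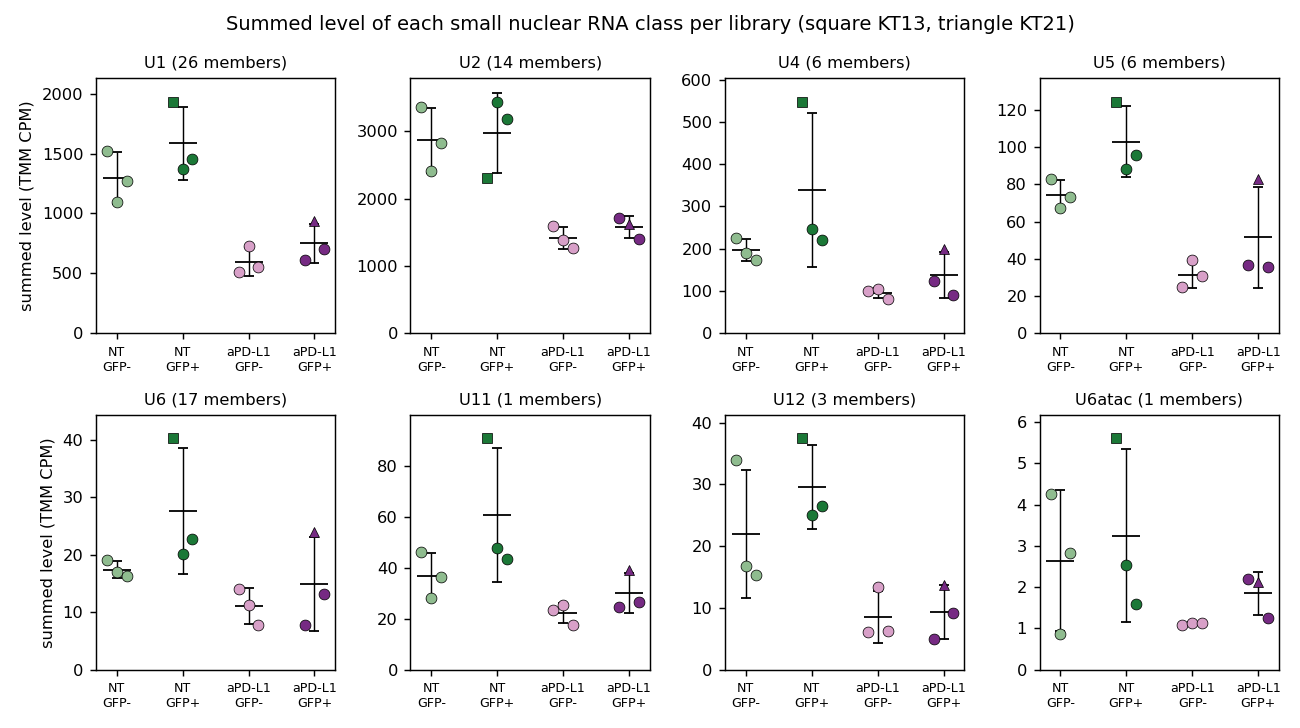
Summed TMM-scaled CPM of the members of each class in every library, by condition (NT, non-treated; aPD-L1, anti-PD-L1), with the mean and SD of 3 libraries as bars. U1 and U2 separate the treatments in every library, and KT13 (square) is the highest library for U1, U4, U5, U6, U11, U12 and U6atac but the lowest of the non-treated libraries for U2.

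Gene by gene, edgeR fitted all 14173 genes that passed its count filter, among them 72 members. Averaged over GFP+ and GFP- cells, 31 members were called lower and 0 higher with anti-PD-L1 at an adjusted p under 0.05. Of all genes tested, 0.303% were called lower (43 genes) in this comparison. The fit took all 12 libraries as independent. The labels do not say whether GFP+ and GFP- libraries came from the same mice. If they did, fewer than 12 samples were independent and these adjusted p-values are too small. All 31 called members were among the 47 with 10 or more counts in all 12 libraries, and they comprised 13 U1, 12 U2, 2 U4, 3 U5 and 1 U12 gene. Their log2 fold changes ran from -1.55 to -0.90. With each of the 12 libraries left out in turn, 20 of the 31 were called every time, 10 U1 and 10 U2 genes, and 11 lost the call at least once, among them all called U4, U5 and U12 genes. The median over the 47 was -1.07 and over the 72 it was -1.05, where the median of all genes was -0.01. Of the 74 members, 10 reached the count limit through the non-treated libraries alone and 0 through the anti-PD-L1 libraries alone, so some of the 72 entered only through their level in the non-treated libraries.

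The libraries separated in the same direction. In 30 of the 72 members, all 6 anti-PD-L1 libraries lay below all 6 non-treated libraries, where 0.55% of all genes tested did so. GFP+ and GFP- libraries were counted separately here, though they may come from the same mice. 28 of these 30 were among the 47 members with 10 or more counts everywhere. Within GFP+ cells 46 of 72 members separated with anti-PD-L1 lower (5.67% of all genes), and within GFP- cells 43 did so (6.26% of all genes). In GFP- cells 2 members separated the other way, as did 862 of all 14173 genes tested.

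Rnu2-10, a U2 gene, was at 248, 359 and 330 CPM in non-treated GFP+ libraries and at 179, 170 and 147 CPM after anti-PD-L1. In GFP- libraries it was at 349, 252 and 295 CPM, then 163, 147 and 133 CPM. The groups did not overlap in either cell population. The log2 fold change was -0.97 ± 0.13 (SE), with an adjusted p of 0.00315 by edgeR, and -1.05 ± 0.10 over 10 libraries, with an adjusted p of 6.99e-07. The other U2 members called were Gm24950, Gm23971, Gm23849, Gm23472, Gm24497, Gm23444, Gm26316, Gm25813, Gm25360, Gm23744 and Gm25939. Gm23744 is a shorter copy that shares the first 77 bases of Rnu2-10 and then diverges, and it fell by 0.95 on the log2 scale. Gm23744 and Gm25939 were not called without KT24, with adjusted p-values of 0.0527 and 0.0567. The U2 members not called were Gm25202 and Gm22973, both under 10 CPM in every library.

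Rnu1a1, a U1 gene, was at 166, 119 and 129 CPM in non-treated GFP+ libraries and at 54.4, 83.1 and 62.2 CPM after anti-PD-L1. In GFP- libraries the values were 137, 97.7 and 111 CPM, then 43.8, 66.1 and 48.1 CPM. Every treated library was below every non-treated one. Its log2 fold change was -1.09 ± 0.15 (SE), with an adjusted p of 0.00358 by edgeR. Its identical copies Gm22317, Gm25679, Gm22634, Gm26444, Gm23804 and Gm22068 were called too, as were Gm24924, Gm26244, Gm24305, Gm23238, Gm22513 and Gm22220. Of these, Gm24305, Gm22513 and Gm22220 lost the call in 7, 10 and 8 of the 12 fits that left out 1 library. The variant U1b genes were lower in counts. Rnu1b1 was at 44.3, 19.2 and 19.1 CPM in non-treated GFP+, at 24.1, 15.8 and 18.9 in non-treated GFP-, at 6.31, 15.8 and 11.3 in anti-PD-L1 GFP+ and at 9.33, 12.3 and 6.72 CPM in anti-PD-L1 GFP- libraries. Its change of -1.18 ± 0.27 had an adjusted p of 0.106, and over 10 libraries it was called lower (-1.08 ± 0.20, adjusted p = 0.00353). Rnu1b2, identical in sequence to Rnu1b1, changed by -1.28 ± 0.29 (adjusted p = 0.096). Rnu1b6 changed by -1.11 ± 0.30 (adjusted p = 0.218) and was called in neither set of libraries.

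Gm24265 and Gm24407 are full-length U4 genes next to each other on chromosome 5 that differ at 2 bases. Gm24265 was at 220, 117 and 111 CPM in non-treated GFP+ and at 60.2, 87.8 and 41.9 CPM in anti-PD-L1 GFP+ libraries. In GFP- libraries it was at 113, 94.5 and 89 CPM, then 47.5, 50.3 and 38.4 CPM. All treated libraries were below all non-treated ones, and KT13 was the highest library by a wide gap. Gm24265 was called lower, at -1.18 ± 0.20 with an adjusted p of 0.0181 by edgeR, and Gm24407 at -1.17 ± 0.21 with an adjusted p of 0.0256. These calls were lost in 5 and 8 of the 12 fits that left out 1 library, with adjusted p-values of up to 0.0923 and 0.117, both without KT24. The other 4 U4 members, Gm25135, Gm24695, Gm25179 and Gm25899, did not follow. Gm25135 had 343 counts in KT13, 88 in KT21 and 9 to 68 in the other libraries. Its changes were -1.94 ± 0.87 in GFP+ and 1.22 ± 0.94 in GFP- cells, neither called.

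Rnu5g, a U5 gene, was at 27.8, 18.6 and 22 CPM in non-treated GFP+, at 20.4, 15.4 and 16.7 in non-treated GFP-, at 7.99, 17.3 and 8.37 in anti-PD-L1 GFP+ and at 5.06, 9.34 and 5.28 CPM in anti-PD-L1 GFP- libraries. KT21, at 17.3 CPM, lay within the non-treated range. Rnu5g was called lower at -1.22 ± 0.23 (adjusted p = 0.0356 by edgeR), as were Gm25313 and Gm23143, while Gm25099 was called only over 10 libraries. Each of the 3 calls was lost in 10 of the 12 fits that left out 1 library and was kept without KT21 or KT22. For Rnu5g the adjusted p reached 0.154 without KT24. Gm22265 and Gm23287 stayed under 5 CPM in every library and were not called.

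Among minor spliceosome RNAs, Rnu12 was at 25.5, 20 and 19.3 CPM in non-treated GFP+, at 23.5, 11.9 and 11.6 in non-treated GFP-, at 3.93, 10.2 and 5.85 in anti-PD-L1 GFP+ and at 4.41, 9.05 and 4.38 CPM in anti-PD-L1 GFP- libraries. The treatments did not overlap, and its change of -1.55 ± 0.28 (adjusted p = 0.027) was the largest of the called members. Leaving out 1 library ended this call in 7 of 12 fits, with an adjusted p of up to 0.117 without KT24. Rnu11 was at 90.8, 47.8 and 43.4 CPM, then 24.6, 39.1 and 26.5 CPM, in GFP+ cells, and at 46.2, 28.1 and 36.3 CPM, then 23.3, 25.4 and 17.7 CPM, in GFP- cells. The groups did not overlap within either population, but its change of -0.87 ± 0.21 had an adjusted p of 0.12. Over 10 libraries Rnu11 was called lower, at -0.78 ± 0.14 with an adjusted p of 0.00301. The U6atac gene Gm25541 was at 0.863 to 5.61 CPM in non-treated and 1.08 to 2.19 CPM in treated libraries, which overlapped, and was not called (-1.01 ± 0.45, adjusted p = 0.623).

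No U6 gene was called. Gm22063, the U6 member with the most counts, was at 9.08, 4.12 and 4.85 CPM, then 2.19, 5.38 and 4.44 CPM, in GFP+ cells, and at 4.31, 5.58 and 4.23 CPM, then 2.97, 2.92 and 1.59 CPM, in GFP- cells. The GFP- groups did not overlap and the GFP+ groups did. Its change was -0.75 ± 0.31 (adjusted p = 0.569). At this depth a change of the size seen in U1 or U2 could be missed in the U6 genes.

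Taken separately, GFP+ and GFP- cells had 0 members called over 12 libraries, where 0% of all genes were called lower in either. At an unadjusted p under 0.05 there were 48 members in GFP+ (6.74% of all genes) and 40 in GFP- cells (3.44% of all genes). All 72 fold changes were negative in GFP+ cells and 63 were in GFP- cells. Of 11498 protein-coding genes, 5736 were negative in GFP+ and 5666 in GFP- cells. Some of the 72 members had entered only through their level in the non-treated libraries, which favors a negative sign. DESeq2 called 32 members lower in GFP+ (0.416% of all genes) and 24 in GFP- cells (0.198% of all genes). Over 10 libraries edgeR called 33 members lower in GFP+ (0.312% of all genes) and 35 in GFP- cells (0.305% of all genes), and 38 in the average (0.698% of all genes). The 38 included all 31 called over 12 libraries. The 7 others were Gm22042, Gm22614, Gm25099, Gm25890, Rnu11, Rnu1b1 and Rnu1b2. Leaving out KT13 alone gave 11 members in GFP+ and 21 in GFP- cells (0.0738% and 0.148% of all genes), and leaving out KT21 alone gave 20 and 23 (0.147% and 0.174%).

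With 1 gene per class and the other copies left out, fewer small p-values entered the adjustment. Over 12 libraries Rnu2-10 (adjusted p = 0.0101), Rnu1a1 (0.0183) and Gm24265 (0.0494) were called lower in the average, and Rnu12 (0.0591) and Rnu5g (0.0722) were not. Over 10 libraries 6 of 8 were called, Rnu11 among them with an adjusted p of 0.00521, and Gm22063 and Gm25541 were not. The fold changes of these genes stayed within 0.00242 of the fit with all copies on the log2 scale. With the copies of a class summed, U1 and U2 were called over 12 libraries.

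**Figure D2:**
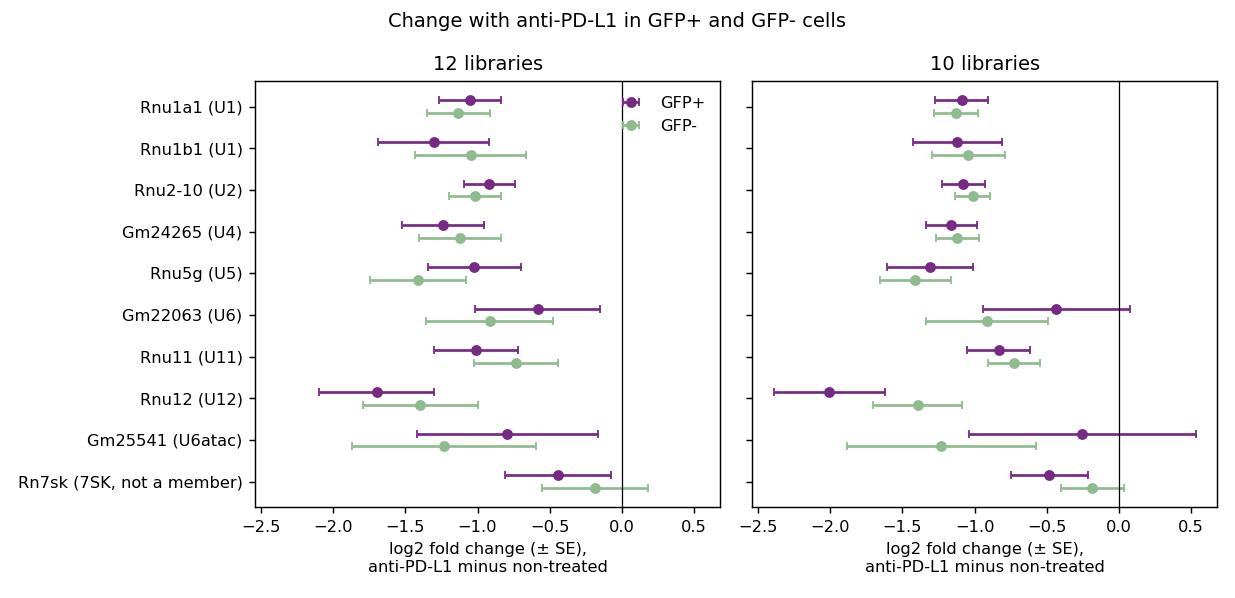
Log2 fold change with its standard error for 1 or 2 genes per class in GFP+ and GFP- cells, over 12 and over 10 libraries. Rnu2-10 lies at -0.92 in GFP+ and -1.02 in GFP- cells over 12 libraries, and Rn7sk lies nearest to 0 in GFP- cells, at -0.19.

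The change had a like size in GFP+ and GFP- cells for the well-counted members. The interaction of GFP and treatment was called for 0 members over 12 or over 10 libraries, and 0% of all genes were called in either. By edgeR 2 members had an unadjusted p under 0.05 in each set (2.08% and 4.29% of all genes), and DESeq2 called 0 in each. Over the 47 members with 10 or more counts everywhere, the median change was -1.02 in GFP+ and -1.03 in GFP- cells. A p that misses the threshold does not show that the changes were equal. For Rnu2-10 the interaction over 10 libraries was -0.06 ± 0.19 (SE) on the log2 scale.

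**Figure D3:**
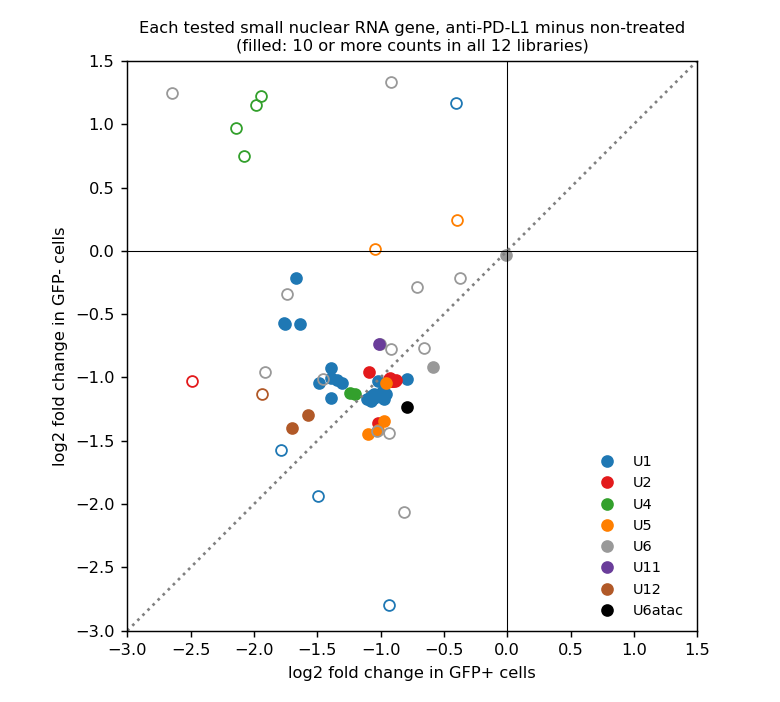
Log2 fold change of each tested member in GFP+ (x axis) and GFP- cells (y axis), colored by class, filled where the member had 10 or more counts in all 12 libraries, with the line of equal change dotted. Most filled points gather near -1 on both axes, and the 4 open U4 points near -2 and 1 are the diverged copies that were high in KT13.

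Between GFP+ and GFP- cells, edgeR called 0 members in non-treated or anti-PD-L1 libraries. Of all genes tested, 0.00706% were called in the former and 0.0282% in the latter, in either direction. At an unadjusted p under 0.05 there were 14 and 6 members (6.05% and 4.08% of all genes). The labels do not say which GFP+ and GFP- libraries came from the same mice, so these libraries were not paired. The median over members was 0.41 in non-treated and 0.35 in treated libraries, on the log2 scale, and 0.21 and 0.14 over 10 libraries, where again 0 members were called (0.339% and 0.17% of all genes). These comparisons share their libraries with the treatment comparisons. DESeq2 called Gm25135, Gm24695, Gm25179 and Gm25899 higher in GFP+ non-treated cells over 12 libraries, where it called 0.374% of all genes in either direction. It called none of these over 10 libraries, without KT13, but called Gm25939 there at 0.71 ± 0.20 (adjusted p = 0.0402), with 0.888% of all genes called. By edgeR Gm25939 had a difference of 0.71 ± 0.18 over 10 libraries and was not called (adjusted p = 0.105).

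Ratios within a library need no scaling between libraries. Rnu1a1 had 33.2 to 39.3 counts per 100 counts of Rnu2-10 in the 5 non-treated libraries other than KT13, and 26.8 to 45 in the 5 treated libraries other than KT21. Gm24265 had 30.1 to 37.5 and 28.6 to 34.3. For U1 and U4 the ranges of the treatments overlapped. Rnu11 had 11.1 to 13.3 per 100 counts of Rnu2-10 in these non-treated and 13.4 to 18.1 in these treated libraries, which did not overlap, by a narrow gap. KT13 had 66.9 for Rnu1a1, 88.6 for Gm24265 and 36.6 for Rnu11, and KT21 had 49, 51.8 and 23, so both libraries held more of the other classes relative to U2 than the rest of their condition.

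Rn7sk, the 7SK gene, was not called. It was at 58.7, 25.8 and 31.8 CPM, then 15.1, 44.4 and 26.1 CPM, in GFP+ cells, and at 26.7, 17 and 21.3 CPM, then 15.4, 24 and 17.7 CPM, in GFP- cells. The ranges overlapped in both, and the change of -0.31 ± 0.26 had an adjusted p of 0.907 by edgeR, and -0.33 ± 0.17 with 0.49 over 10 libraries. Per 100 counts of Rnu2-10, Rn7sk had 6.74 to 9.63 in the non-treated and 8.44 to 17.8 in the treated libraries, KT13 (23.7) and KT21 (26.2) apart. Whether 7SK differed from the spliceosomal RNAs was not tested.

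**Figure D4:**
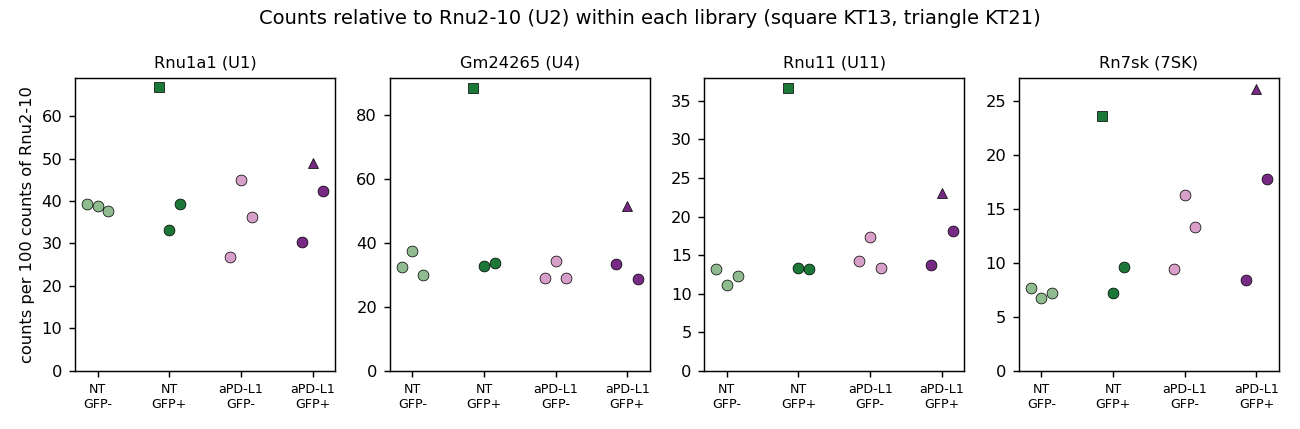
Counts of Rnu1a1, Gm24265, Rnu11 and Rn7sk per 100 counts of Rnu2-10 in each library, by condition, with KT13 as a square and KT21 as a triangle. KT13 and KT21 lie above the other libraries of their condition for all 4 genes, and outside them the U4 gene Gm24265 keeps a narrow range of 28.6 to 37.5.

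No gene for the proteins that build and use these RNAs passed the test. Of 131 tested genes in 9 lists, 0 were called in any treatment comparison over 12 or over 10 libraries by edgeR, and DESeq2 called 0 over 12. Few genes were called at all: in the average 0.303% of all genes tested were called lower over 12 libraries and 0.698% over 10. Of the list genes, 4 had an unadjusted p under 0.05 in the average over 12 libraries and 8 over 10. These counts were not set against the share over all genes. The summed level of the lists was 5948 to 6133 CPM in non-treated and 5783 to 6106 CPM in treated libraries. The core Sm proteins, which form the ring on most small nuclear RNAs, had a median change of -0.05, and the smallest p was that of Snrpd2 (-0.14 ± 0.15). The U1 and U2 proteins had -0.07, led by Sf3a3 (-0.19 ± 0.11), the U4/U6, U5 and LSm proteins -0.02, led by Prpf31 (-0.33 ± 0.20), and the minor spliceosome proteins -0.05, led by Snrnp25 (0.21 ± 0.17).

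Factors of small nuclear RNA transcription, such as the SNAPc subunit gene Snapc5 (0.24 ± 0.13), had a median of 0.03. Integrator, which cleaves the 3′ end of the transcripts, had a median of 0.08, and its member Ints2 (-0.47 ± 0.16, adjusted p = 0.373) had the smallest p of all 9 lists. Export, assembly and maturation factors had -0.04, with Mettl4 at 0.58 ± 0.32, 7SK and P-TEFb proteins had -0.08, with Cdk9 at -0.11 ± 0.11, and the nuclear exosome and tailing factors had 0.02, with Pabpn1 at -0.76 ± 0.29. None of these named genes was called.

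**Figure D5:**
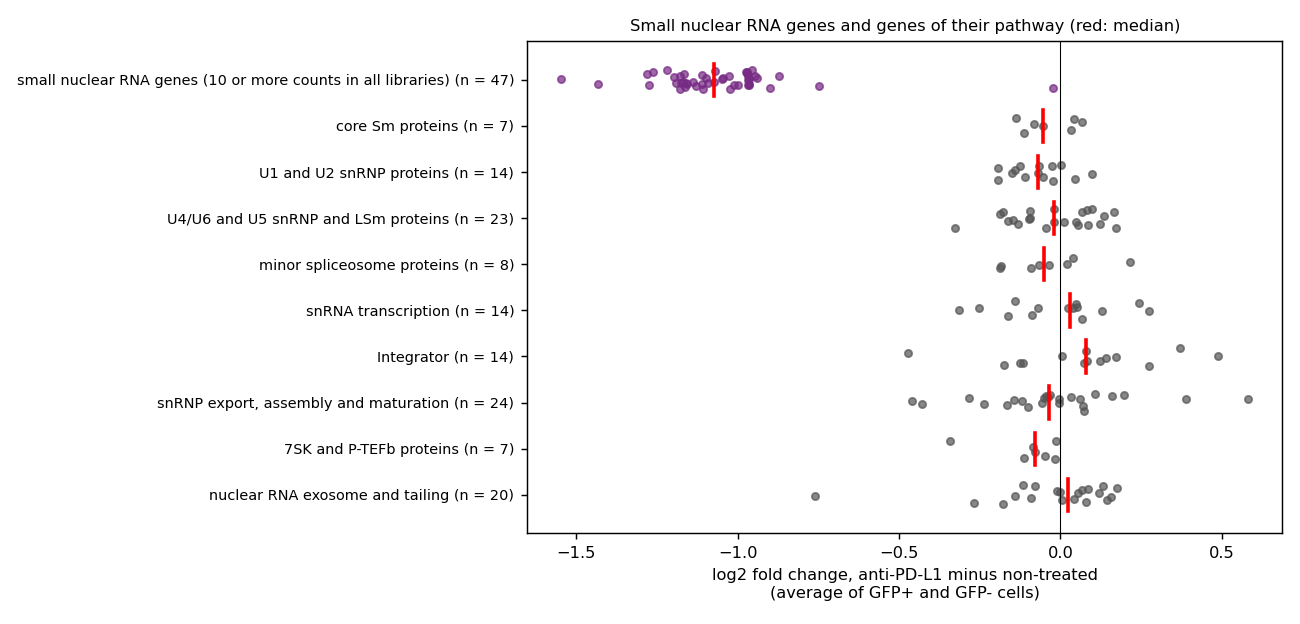
Log2 fold change with anti-PD-L1, averaged over GFP+ and GFP- cells, of the 47 members with 10 or more counts in all libraries and of the tested genes in each pathway list, with the median in red. The members have a median of -1.07, and the medians of the 9 lists lie between -0.08 and 0.08.

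Other RNA classes were described in the same fit, beginning with those that mostly lack a poly(A) tail. Of 65 tested replication-dependent histone genes, 65 had a negative change, with a median of -0.60, and 2 were called lower, Hist1h1d (-1.63 ± 0.32) and Hist1h2bn (-1.61 ± 0.32). Of all genes tested, 0.303% were called lower. Over 10 libraries Hist1h1d was called again (-1.64 ± 0.30) and Hist1h2bn was not. Hist2h3b (-1.33 ± 0.32) and Hist1h2ao (-0.57 ± 0.14) were called lower there, with 0.698% of all genes. The histone genes summed to 2737 to 4921 CPM in non-treated and 1536 to 3086 CPM in treated libraries. Of 37 snoRNA genes, 26 had a negative change, with a median of -0.37, and 0 were called by edgeR. Over 10 libraries 1 of 41 was called lower, Snord13 (-0.43 ± 0.08, adjusted p = 0.00492). For 7 scaRNA genes the median was -0.30 and for 15 misc_RNA genes it was -0.18, again with 0 called. The 13 tested mitochondrial tRNA genes went the other way: 13 had a positive change, with a median of 0.51, and 0 were called by edgeR. Their standard errors were 0.21 to 1.17, and over 10 libraries 11 of 13 were positive, with a median of 0.81 and 0 called. The 15 tested mitochondrial mRNA and rRNA genes, whose RNAs can carry short poly(A) tails, had a median of -0.05. Nuclear retained long RNAs included Malat1, at -0.39 ± 0.18, which was not called. Over 10 libraries edgeR called 3 of 294 tested genes of type lincRNA lower and 2 higher. Those called lower were Xist (-0.66 ± 0.10, adjusted p = 0.000679), Gm26917 (-0.57 ± 0.09, 0.00047) and 2610037D02Rik (-3.70 ± 0.77, 0.0106).

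Marker genes of other cells were present in the sorted libraries, and 2 macrophage markers were called lower with treatment over 12 libraries. The CD8 T cell markers, all 7 detected, summed to 3867 to 4643 CPM in non-treated and 4633 to 6016 CPM in treated libraries. The macrophage markers, all 8 detected, summed to 123 to 228 and 67.3 to 139 CPM, and 2 of 8 were called lower, the complement gene C1qa (-1.001 ± 0.186, adjusted p = 0.0317) and the lysozyme gene Lyz2 (-1.50 ± 0.30, adjusted p = 0.0461). Over 10 libraries edgeR called C1qa, Lyz2 and the macrophage marker Csf1r (-1.30 ± 0.27, adjusted p = 0.0125) lower. The MHC class II marker H2-Ab1 (-0.75 ± 0.17, adjusted p = 0.024) was called lower there too. Of all genes tested, 0.303% were called lower over 12 libraries and 0.698% over 10. Dendritic cell and MHC class II markers summed to 117 to 252 and 87.5 to 168 CPM, tumor epithelial markers to 15.1 to 32 and 8.2 to 20.2 CPM, fibroblast markers to 3.98 to 54.8 and 0.0713 to 12 CPM, and erythroid markers to 257 to 577 and 123 to 374 CPM. B cell markers summed to at most 7.13 CPM, CD4 T cell markers to at most 24.9, endothelial markers to at most 24.3 and neutrophil markers to at most 2.76 CPM. NK cell markers summed to 354 to 642 and 240 to 869 CPM. The part of other cells in the small nuclear RNA result was not tested, and in bulk libraries fewer cells of a type and less RNA per cell cannot be told apart.

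The count limit was met narrowly by some U6 genes. Just inside it, Gm26328 had 10, 11 and 12 counts and Gm24492 had 14, 10 and 11 counts in the 3 libraries that passed, and both were left out of the 12-library fit by its filter. Just outside it, Gm25703, Gm25326, Gm24859 and Gm23507 had 9 counts in their 3rd-highest library, and Gm22155 and Gm24003 had 8. These values chose the members and no test was made on them.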

How the data were processed

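RNA of sorted CD8+ TILs was sequenced as 75-base single-end reads after 3′ mRNA library preparation. Per the study's methods, reads were trimmed with Cutadapt, aligned to mm10 with HISAT2 and counted per gene with featureCounts (the submitters' processing notes name cutadapt 1.7 and Subread 1.6.4). The values deposited by the authors are raw read counts per gene for 12 libraries. Strand and multi-mapping settings are not given in the sources used here. No column of another series was present (0 columns).

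Gene types, sequences and coordinates came from GENCODE vM21 (GRCm38), which matched 52489 of 52636 identifiers. Classes came from symbols, from the closest named transcript (blastn 2.17.0, e-value limit 1e-05), or from general knowledge of the sequence. All genes were fitted at once with edgeR 4.0.16 (TMM, filterByExpr, quasi-likelihood F test, Benjamini-Hochberg adjustment, threshold 0.05) in R 4.3.3, over 4 conditions without covariates. Standard errors are the log2 fold change divided by the square root of F. CPM are counts per 1000000 counts of the TMM-scaled library. DESeq2 1.42.0, other scalings and filters, and left-out libraries were alternatives, and fits with 1 gene per class and DESeq2 over 10 libraries were added after seeing the data. The fit was tested on simulated data.

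Members and lists were chosen with earlier results of these data known. Named were members with a class in the symbol, the 20 called members with the smallest adjusted p, the 5 other members with the highest CPM, those at the count limit, and per pathway list the called members or the one with the smallest p. Gm25135 and other copies were named after their values were seen. Sequences of some members are not reported here.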

Additional observations from a re-analysis of the deposited data

How the results depend on the processing

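Of the 31 members called lower in the average over GFP+ and GFP- cells, copies summed per class left 2 of 8 classes, 1 gene per class left 3 of 8, and 1 gene per class over 10 libraries left 6 of 8, where by construction fewer rows were tested. Leaving out each library in turn gave 20 to 38 members in the average (20 without KT24, which were called in every one of these fits), 0 to 20 in GFP+ cells and 0 to 23 in GFP- cells. In GFP+ cells, 0 members over 12 libraries became 33 over 10 libraries, 32 with DESeq2, 35 with DESeq2 over 10 libraries, 36 with no filter beyond 1 count, and 4 with 1 gene per class over 10 libraries. In GFP- cells, 0 became 35, 24, 38, 31 and 4 in the same order, and 30 when only the 2 conditions compared were fitted. Of all genes, 0.312% in GFP+ and 0.305% in GFP- cells were called lower over 10 libraries. DESeq2 over 12 libraries called 0.416% and 0.198% lower. The counts from the other settings were not set against the share over all genes. Whether those settings called more of all genes too was not compared. GFP+ against GFP- in non-treated cells went from 0 members called higher to 4 with DESeq2, 4 with no filter beyond 1 count and 1 with DESeq2 over 10 libraries. In that comparison DESeq2 called 0.374% of all genes over 12 libraries and 0.888% over 10, in either direction. The counts with no filter, here and in the interaction, were not set against the share over all genes. With no filter beyond 1 count, 2 members, Gm25135 and Gm24695, were called in the interaction. The cause was not tested. No member was called higher with anti-PD-L1 under any of these alternatives. The 18 ratios of summed levels moved by less than the spread between libraries under 16 alternatives, and the summed level of all members kept a ratio of 0.449 to 0.531. None of 102 changes of 34 named members reversed under 20 alternatives. The 34 included the called members with the smallest adjusted p, which favors a stable sign. Gm25135, Gm24695, Gm25179 and Gm25899 were not among the 34. No paired analysis was possible because the labels do not say which libraries came from the same mice. Members under 10 counts in some library, most U6 genes among them, rest on few counts. Whether depth accounts for their missing calls was not tested.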
